A study of Mus musculus with 15 samples.

Results

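The myogenic regulatory factors, their MEF2 partners and the Id proteins were followed in the gastrocnemius, a fast hindlimb muscle, of mice that were young, old, or old after lifelong calorie restriction (CR). They comprised 9 genes, Myod1, Myog, Myf5, Myf6, Mef2a, Mef2c, Id1, Id2 and Id3, and every probe set that the platform annotation assigned to them was taken. This gave 19 probe sets of the 22690 on the MOE430A array, a short-oligonucleotide chip on which a probe set is a group of probes for 1 transcript region. All 15 animals were individually housed male C57BL/6NHsd mice without any genetic change, with 5 animals and 1 array each per group. The young mice (5 months) and the old mice (25 months) received the control diet of 84 kcal per week, which is below free intake, and the old CR mice (25 months) received lifelong a diet that differed by 26% in calories from the control diet and was enriched in protein, vitamins and minerals. There was no young group on CR, so the effects of diet could be read in old muscle only. The arrays were hybridised with labelled cRNA derived from poly(A)+ RNA of the whole muscle, so the cell type in which a transcript was made is unknown, and fewer cells of a type cannot be told apart from less RNA per cell.

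The 4 myogenic regulatory factors are basic helix-loop-helix proteins that bind the E-box, a short DNA motif, together with the ubiquitous E proteins. Myod1 and Myf5 commit cells to the muscle lineage and mark activated satellite cells, the stem cells of muscle, whereas Myog drives terminal differentiation and Myf6 is the member most used in adult fibers. MEF2 proteins bind A/T-rich elements of muscle genes and act jointly with the myogenic factors. Id proteins have the helix-loop-helix but no DNA-binding region, so they capture E proteins and hold the myogenic factors off DNA. Id1 and Id3 are well-known targets of bone morphogenetic protein (BMP) signalling. In adult muscle, Myog and Myod1 are best known for their rise after loss of nerve supply.

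The promoters of the family are shown because the factors act through these short motifs and regulate each other. RefSeq entries on GRCm38.p6 were matched for 6 of the 9 genes (8 promoters), and the 250 bases before each start were searched on both strands for the E-box (CANNTG) and for the strict consensus MEF2 motif. The Myog promoter (chr1:134289754-134290003, plus strand) held 2 E-boxes, CACATG at 138 to 133 bases and CAGTTG at 12 to 7 bases before the start. Among all 32851 promoters of the table, 66.2% held an E-box and 2.92% the strict MEF2 motif, which had no match in these 8 windows. With 1 base off this motif allowed, a search chosen after the sequences had been seen, 25.0% of all promoters held a match. In the Myog window this was CTATATTTAT at 64 to 55 bases before the start, in capitals in the sequence, and 2 of the 3 Mef2c windows held such matches. The promoters of Mef2a (chr7:67372859-67373108, minus strand) and Id3 (chr4:136143572-136143821, plus strand) are shown for contrast, since no E-box lay in their windows. Id2 had 1 E-box (CAGCTG), Myf5 had none, and the 3 promoters of Mef2c had 2, 0 and 1. E-boxes are in capitals too, and all sequences run 5′ to 3′ on the strand of the gene.
Myog: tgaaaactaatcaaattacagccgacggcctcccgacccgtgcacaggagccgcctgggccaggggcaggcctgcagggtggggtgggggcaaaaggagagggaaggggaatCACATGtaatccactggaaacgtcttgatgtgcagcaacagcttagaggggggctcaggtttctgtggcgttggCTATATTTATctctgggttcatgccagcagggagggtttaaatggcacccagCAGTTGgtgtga
Mef2a: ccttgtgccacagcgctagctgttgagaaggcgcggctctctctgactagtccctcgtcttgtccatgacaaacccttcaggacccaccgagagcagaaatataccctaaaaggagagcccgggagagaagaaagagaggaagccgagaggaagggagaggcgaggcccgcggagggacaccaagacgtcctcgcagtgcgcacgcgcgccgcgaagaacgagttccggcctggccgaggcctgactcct
Id3: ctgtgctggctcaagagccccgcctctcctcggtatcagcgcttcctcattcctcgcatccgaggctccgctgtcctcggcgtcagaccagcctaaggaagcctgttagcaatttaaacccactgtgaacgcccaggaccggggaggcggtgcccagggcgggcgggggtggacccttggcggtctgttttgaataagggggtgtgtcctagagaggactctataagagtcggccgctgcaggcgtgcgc
The genes lie on 7 chromosomes, and Myf5 (chr10:107482908-107486927) and Myf6 (chr10:107492848-107494723) are neighbours with 5920 bases between them. A match is a description of the letters and does not show that a factor was bound in these muscles.

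Values are the linear intensities that were deposited, and differences are given on the log2 scale with the standard error (SE) of the limma fit over all 22626 probe sets that are not controls. A probe set was called at an adjusted p under 0.05 (Benjamini and Hochberg, over all of them). Brightness depends on the probes as well as on the transcript, so no gene's level was set against another's. Of the 19 probe sets, 14 were among the 11313 brightest, while Myf5, all 3 of Id2 and the Mef2a probe set 1425426_a_at were dimmer. The fiber markers were bright on every array, with summed intensities of 10 markers between 221669 and 355447. An RNA measure differed between the groups and is given here because all values come from the same arrays. The signal at the 3′ end over that at the 5′ end on the control probe sets for Gapdh and Actb, as a mean log2 difference, was -0.18 ± 0.14 in young, 0.13 ± 0.09 in old and -0.30 ± 0.08 in old CR (SD, n = 5 each). It was higher in old than in old CR muscle without overlap (two-sided exact permutation test, p = 0.00794, the smallest that 5 against 5 allow, 0.0179 after adjustment over 9 tests) and higher in old than in young muscle (exact p = 0.0159, adjusted 0.0286). With this measure in the fit, 0% of all probe sets were called in either comparison with old. Because it moved with the groups, such a fit cannot separate the measure from age or diet.

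No probe set of the 9 genes was called in any of the 3 comparisons by limma, the only tool used across probe sets. Among all probe sets, 0.265% were called in old against young, 4.87% in old CR against old and 0.0884% in old CR against young. At an unadjusted p under 0.05, 4 of the 19 differed in old against young (all higher in old), 3 in old CR against old (1 higher, 2 lower) and 3 in old CR against young (all higher in old CR), beside 15.5%, 21.9% and 12.1% of all probe sets. With age, 16 of the 19 were higher and 3 lower, with a median difference of 0.20, where 9730 of all 22626 were higher and the median was -0.06. Old CR lay above old in 7 and below it in 12, with a median of -0.17 against 0.06 over all probe sets. Old CR exceeded young in 12 of 19, with a median of 0.05 against -0.01. The old arrays enter both of the comparisons with old, so the directions of those comparisons are not independent. Nor are the probe sets of 1 gene, and 10 of the 19 belong to Mef2a and Mef2c. By the brightest probe set of each gene, all 9 were higher with age, by 0.02 to 0.90. In old CR against old, 3 of the 9 were higher and 6 lower.

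**Figure D1:**
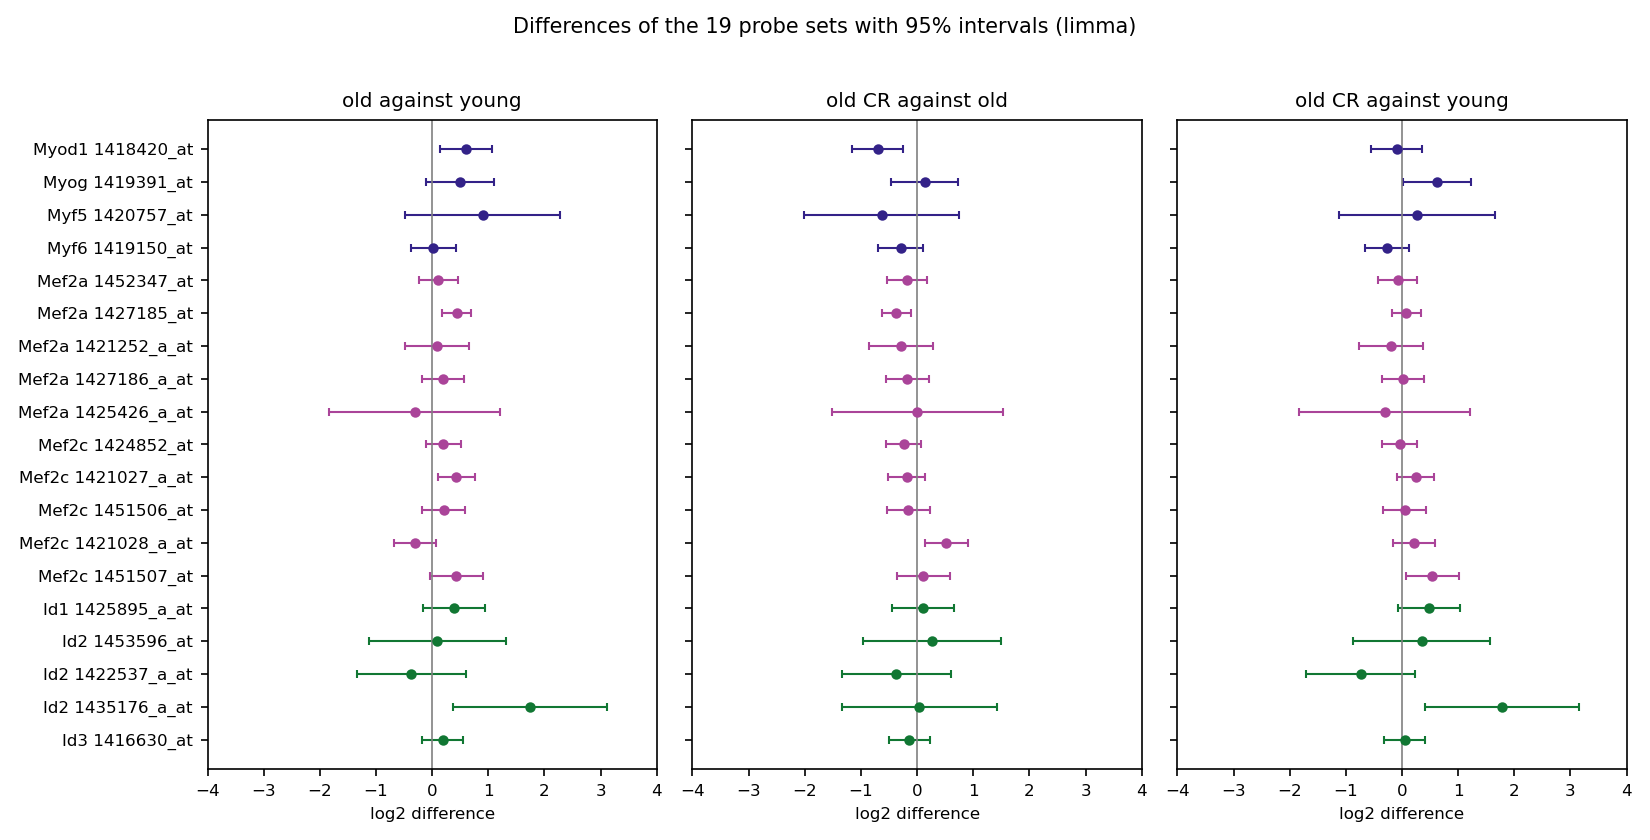
Log2 differences of the 19 probe sets (points) with 95% intervals from limma (bars) in the 3 comparisons, with positive values for higher in the group named first. The bars of Myod1 and of Mef2a 1427185_at lie wholly right of 0 in old against young and wholly left of 0 in old CR against old, and no probe set passed the adjustment over all 22626.

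Myod1, the master regulator of the myogenic program, had its highest mean in old muscle. Its intensities were 549.7, 579, 647, 519 and 581 in the 5 young mice, 901, 897, 599, 1121 and 923 in the old mice and 497, 330.3, 570.3, 598 and 796 in the old CR mice. Of the old mice, 4 lay above every young and every old CR value, and the old replicate 3 lay within the young range. The difference between old and young was 0.60 (SE 0.21, adjusted p = 0.191), or 1.52-fold. Old CR was lower than old by 1.62-fold, a log2 difference of -0.70 (SE 0.21, adjusted p = 0.0727), and neither difference was called. The CR and young groups lay close together, at -0.10 (SE 0.21, adjusted p = 0.904), with a 95% interval of -0.55 to 0.36. The difference of old CR from old passed the threshold when the test was limited to the 11313 brightest probe sets (adjusted p = 0.0264, where 15.7% of probe sets were called), with a variance trend (0.0383, where 7.36% were called), with arrays centered on their medians (-0.79, adjusted p = 0.0452, where 4.89% were called), or without old CR replicate 7 (-0.84, adjusted p = 0.0487, where 2.32% were called). With this 3′ to 5′ measure added to the fit it was -0.94 (adjusted p = 0.784, where 0% of all probe sets were called).

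Myog, the differentiation factor, was spread widely in all groups. It measured 183, 234, 233, 177 and 102 in young, 183, 332, 147, 351 and 316 in old and 249.6, 332, 326, 215 and 272 in old CR muscle. In the old group 3 mice exceeded every young value while replicates 1 and 3 lay inside the young range, and in the old CR group 4 of 5 exceeded every young value. Old differed from young by 0.49 (SE 0.28, adjusted p = 0.422), old CR from old by 0.14 (SE 0.28, adjusted p = 0.821) and old CR from young by 0.63 (SE 0.28, adjusted p = 0.39). The ranges overlapped in each of these.

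Myf6, also called MRF4, was steadier. It measured 2008, 1927, 2546, 2371 and 2234 in young, 1836, 1958, 1881, 2658 and 3139 in old and 1375, 1548, 2274, 2026 and 2105 in old CR mice. The old group held the highest values, in replicates 4 and 5, and the old CR group the lowest, in replicates 2 and 3. The difference with age was 0.02 (SE 0.19, adjusted p = 0.97), with a 95% interval of -0.38 to 0.42, and that of old CR from old was -0.29 (SE 0.19, adjusted p = 0.389).

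Myf5 was dim, at 19.7, 21.0, 42.6, 15.6 and 13.8 in young, 65.4, 28.6, 16.6, 54.2 and 50.6 in old and 35.5, 4.09, 34.0, 23.1 and 83.5 in old CR mice. Its differences of 0.90 (SE 0.65, adjusted p = 0.534) with age and -0.63 (SE 0.65, adjusted p = 0.611) with CR lay within a spread between replicates of 1.10 (pooled SD, log2), where the median probe set had 0.39. For comparison this SD was 0.34 for Myod1, 0.46 for Myog and 0.29 for Myf6.

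**Figure D2:**
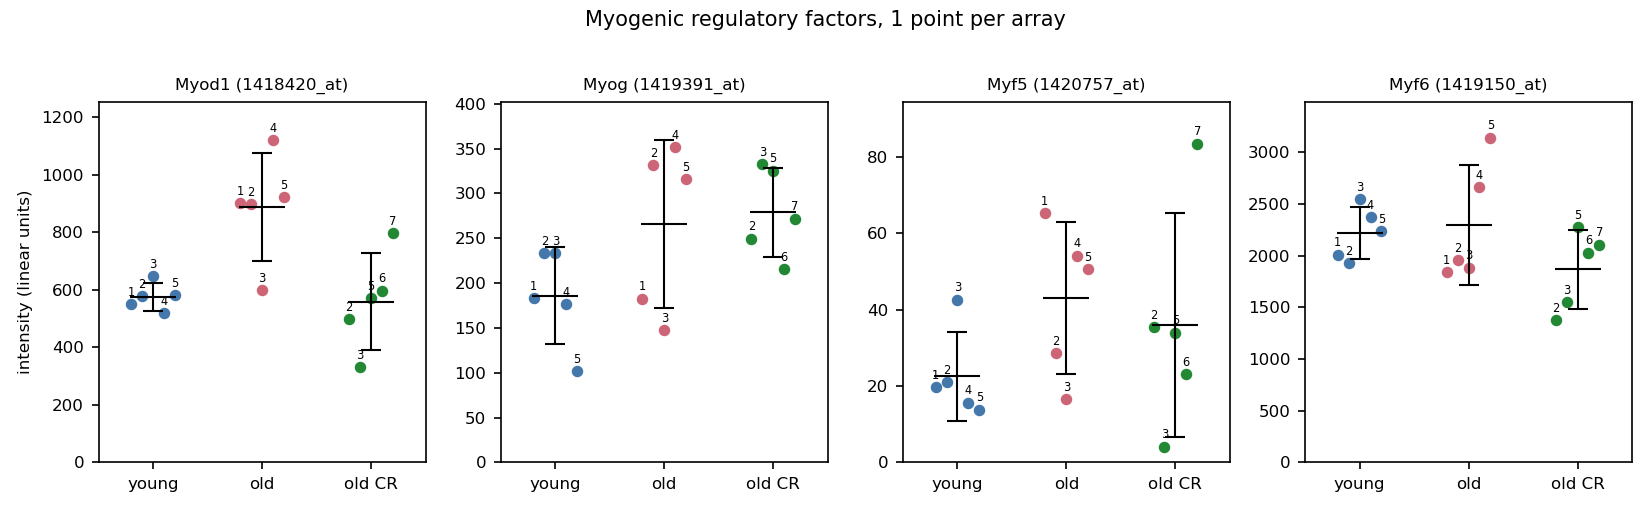
Intensities (linear units) of the probe sets of Myod1, Myog, Myf5 and Myf6 in young, old and old CR muscle, with 1 point per array marked by its replicate number, the mean as a bar and the SD as error bars (n = 5). For Myod1, 4 of the 5 old arrays lie above all other arrays, and for the other 3 genes the groups overlap broadly.

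Mef2a was represented by 5 probe sets that did not behave alike. The probe set 1427185_at gave 2121, 1826, 2549.8, 1661 and 1945 in young, 2609, 2994, 2686, 2653 and 2639 in old and 1963, 2024, 2161, 2164 and 2205 in old CR muscle. All 5 old arrays were above every other array, as in 0.641% of all probe sets. Old was higher than young by 0.44 (SE 0.12, adjusted p = 0.107), or 1.36-fold, and no overlap in this direction was found for 1.61% of all probe sets. Old CR was lower than old by 1.29-fold, at -0.37 (SE 0.12, adjusted p = 0.0919), where 4.04% of all probe sets were lower without overlap. Its spread between replicates was the smallest of the 19 (pooled SD 0.15).

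Although not called, this probe set came nearest to the threshold with age. It was called in old against young among the 11313 brightest probe sets (adjusted p = 0.0392, where 5.06% were called), with a variance trend (0.0448, where 1.85% were called), with array weights (0.48, adjusted p = 0.0331, where 3.4% were called) and without young replicate 3 (0.53, adjusted p = 0.0139, where 4.72% were called). For old CR against old it was called among the brightest (0.0413), with the trend (0.0434) and without young replicate 3 (0.0441, where 7.32% were called). With the 3′ minus 5′ covariate the differences shrank to 0.27 with age (adjusted p = 0.862) and -0.14 with CR (adjusted p = 0.955). Under this setting 0% of all probe sets were called in both comparisons.

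The brightest probe set of Mef2a, 1452347_at, showed no such pattern, at 2782, 1907, 3409.7, 2623 and 2187 in young, 2565, 3036, 2610.3, 2512 and 2934 in old and 2075, 2486, 2098, 2414 and 3072 in old CR muscle. It differed by 0.11 (SE 0.16, adjusted p = 0.8) with age, with a 95% interval of -0.24 to 0.45, and by -0.18 (SE 0.16, adjusted p = 0.558) with CR. The probe sets 1421252_a_at and 1427186_a_at differed by 0.09 and 0.19 with age and by -0.28 and -0.17 with CR, all with overlapping ranges. The suffix _a_at marks probe sets that match several transcripts of 1 gene. The dim 1425426_a_at ranged from 15.8 to 116 in young, 18.5 to 115 in old and 15.2 to 154 in old CR, and no difference could be read from it. Thus 4 of the 5 Mef2a probe sets were higher in old than in young, by 0.09 to 0.44.

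Mef2c, the MEF2 factor required for the structure of postnatal fibers, also had 5 probe sets, and these opposed each other. The brightest, 1424852_at, measured 7659.6, 6338, 8547, 6439.9 and 5248 in young, 8408, 8302, 8901, 6546 and 6836 in old and 5924, 6533, 6666, 7135 and 6625 in old CR mice. The 4 highest arrays were old replicates 1, 2 and 3 and young replicate 3, and the groups overlapped. It differed by 0.20 (SE 0.14, adjusted p = 0.539) with age and -0.24 (SE 0.14, adjusted p = 0.359) with CR.

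The probe set 1421027_a_at gave 3002, 2945, 3989, 2525 and 2526 in young, 5099, 3908, 3854, 3612 and 3565 in old and 3103, 3819.8, 4078, 3376 and 3199.7 in old CR muscle. Every old array exceeded 4 of the 5 young arrays, and only old replicate 1 exceeded young replicate 3. Old was higher than young by 0.43 (SE 0.15, adjusted p = 0.199). Without young replicate 3 this was 0.54 (adjusted p = 0.0457). With the 3′ minus 5′ covariate it was -0.08, the opposite sign. Old CR differed from old by -0.18 (SE 0.15, adjusted p = 0.517), and by 0.50 with the covariate.

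The probe set 1421028_a_at went the other way, with 3157, 2405, 2282, 2434 and 1553 in young, 2141, 2173, 1824, 1496 and 1795 in old and 2282, 3168, 2614, 2915 and 2511 in old CR mice. All old CR arrays lay above all old arrays, as in 4.86% of all probe sets in this direction. Old CR was 1.43-fold higher than old, at 0.52 (SE 0.18, adjusted p = 0.103), which was called among the 11313 brightest probe sets (adjusted p = 0.0438) and under no other setting tried. The difference with age was -0.30 (SE 0.18, adjusted p = 0.433).

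The remaining Mef2c probe sets were 1451507_at and 1451506_at. For 1451507_at, the values were 1894, 831, 1706, 1759 and 2009 in young, 2189, 2662, 2262, 1589 and 2013 in old and 2254, 2649.6, 2332, 2072 and 2147 in old CR mice. All old CR arrays exceeded all young arrays (1.68% of all probe sets in this direction), and the young group held a low value in replicate 2. Old CR differed from young by 0.54 (SE 0.22, adjusted p = 0.342) and old from young by 0.43 (SE 0.22, adjusted p = 0.365). For 1451506_at the differences were 0.21 with age and -0.16 with CR, and the ranges overlapped. In old CR against old, 3 of the 5 Mef2c probe sets were lower and 2 were higher, so no single direction describes the gene.

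**Figure D3:**
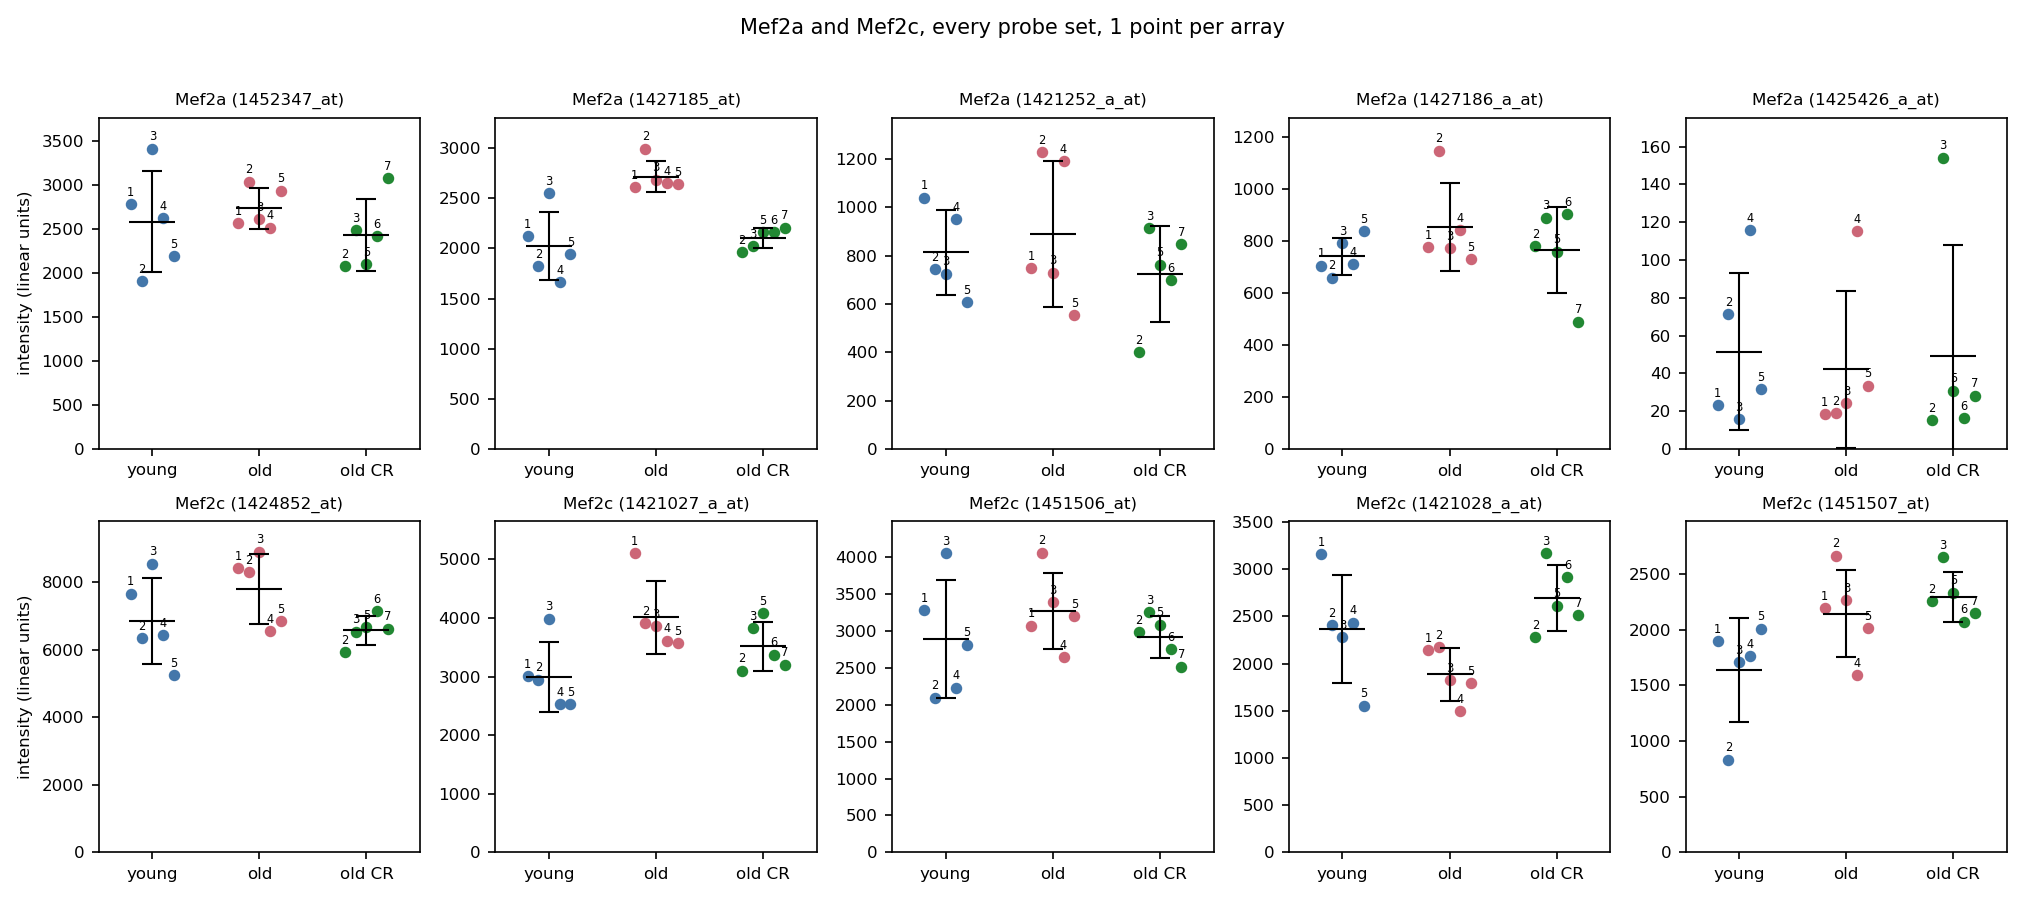
Intensities (linear units) of the 5 probe sets of Mef2a (top) and the 5 of Mef2c (bottom), with 1 point per array marked by its replicate number, the mean and the SD (n = 5, lower bars cut at 0). The old arrays stand clear of both other groups for Mef2a 1427185_at, and the old CR arrays stand above the old arrays for Mef2c 1421028_a_at.

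Id1 varied within each group. It measured 439, 451, 432, 908 and 599 in young, 479, 658, 605, 1001 and 919 in old and 557, 607, 915, 906 and 875 in old CR muscle. In the young group replicate 4 stood far above the others, and in the old CR group 3 of 5 lay near that value. Old differed from young by 0.38 (SE 0.26, adjusted p = 0.5), old CR from old by 0.10 (SE 0.26, adjusted p = 0.864) and old CR from young by 0.48 (SE 0.26, adjusted p = 0.486). Without old replicate 1 the difference of old CR from old was -0.04. With the 3′ minus 5′ covariate it was -0.84 (adjusted p = 0.810, where 0% of all probe sets were called), so its sign was not fixed.

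Id3 measured 479, 574, 567, 841 and 809.8 in young, 835, 598, 639, 720.3 and 881 in old and 621, 734, 694, 605 and 659 in old CR muscle. The groups overlapped throughout, and the old CR values were the closest together. It differed by 0.19 (SE 0.17, adjusted p = 0.635) with age, with a 95% interval of -0.18 to 0.55, and by -0.14 (SE 0.17, adjusted p = 0.688) with CR.

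Id2 was dim on all 3 of its probe sets. The largest difference among the 19 was that of 1435176_a_at, with 10.5, 11.9, 50.8, 47.0 and 12.5 in young, 84.6, 191, 112, 61.8 and 13.9 in old and 46.7, 88.3, 74.1, 111 and 52.4 in old CR mice. Of the old mice, 4 exceeded all young mice, and old replicate 5 lay at the level of the lowest young values. The log2 difference was 1.74 (SE 0.64, adjusted p = 0.211) with age and 1.78 (SE 0.64, adjusted p = 0.281) in old CR against young. After addition of 32 to every intensity before the logarithm, these were 0.98 and 0.90, and neither was called. The other probe sets disagreed with it, since 1453596_at differed by 0.09 and 1422537_a_at by -0.37 with age, and the latter lay at 73.2 ± 32.9 in young, 62.9 ± 44.7 in old and 46.5 ± 29.7 in old CR (SD, n = 5). No direction can be given for Id2 at this brightness.

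**Figure D4:**
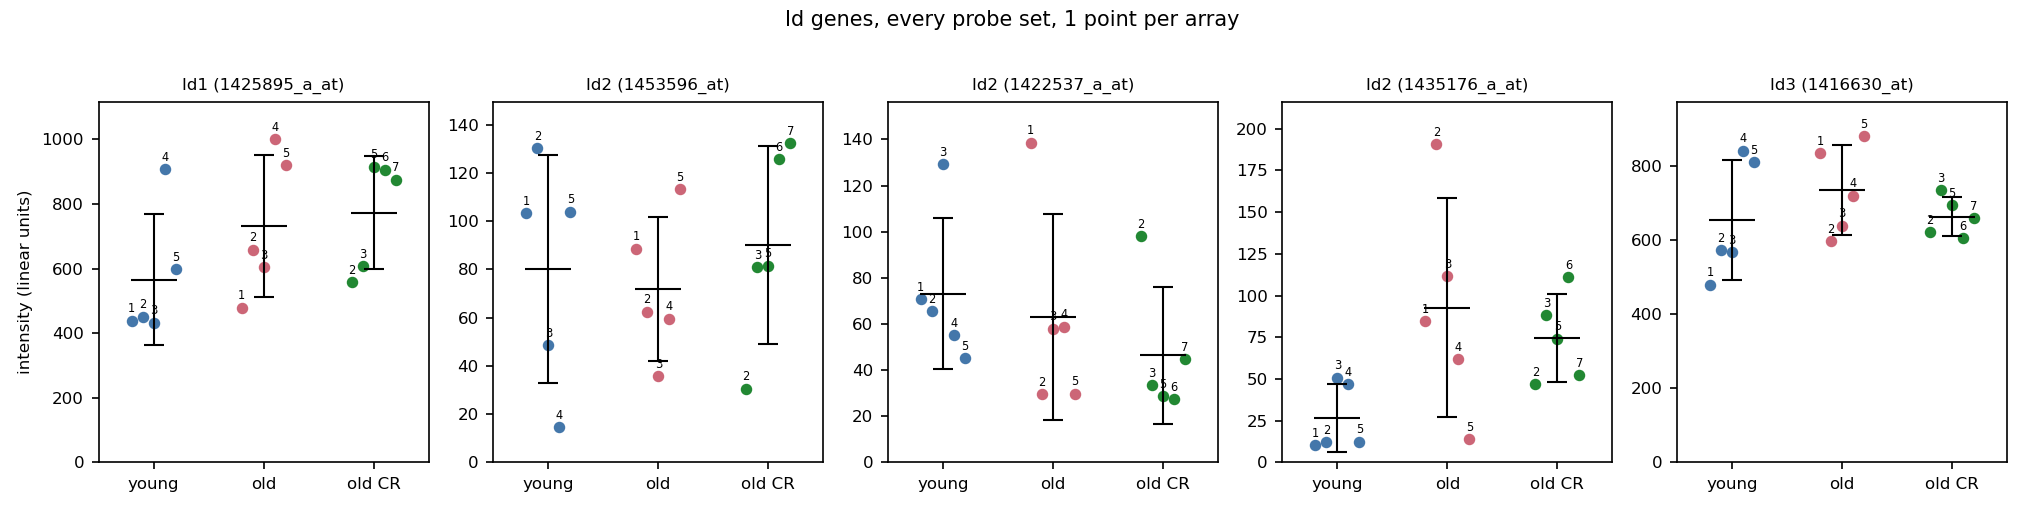
Intensities (linear units) of the probe sets of Id1, Id2 and Id3 in young, old and old CR muscle, with 1 point per array marked by its replicate number, the mean and the SD (n = 5). The groups overlap for Id1 and Id3, and the 3 probe sets of Id2 lie below 200 and do not share a pattern.

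Satellite cells are a source of Myod1 and Myf5, so their markers were measured on the same arrays. The summed intensity of 7 of 9 listed markers, with Myf5 left out, ranged from 1231 to 1795 in young, 1184 to 1640.3 in old and 1261 to 1984 in old CR muscle, and none of the markers was called. Pax7, the transcription factor that defines these cells, measured 200.1 ± 12.4 in young, 215 ± 23.4 in old and 229.6 ± 45.7 in old CR mice (SD, n = 5). Other markers moved more. Calcr averaged 133 ± 21.6, 88.9 ± 17.1 and 86.2 ± 37.2 in these groups, with a difference of -0.59 (SE 0.30, adjusted p = 0.365) with age. Cdh15 differed by 0.55 (SE 0.24, adjusted p = 0.21) in old CR against old. With Myf5 counted, 4 markers were higher and 4 lower in each of these comparisons. Endothelial cells express Id1 and Id3, and the sum of 11 endothelial markers ranged from 7051 to 7491 in young, 6288 to 7719.6 in old and 5823 to 7879 in old CR muscle. Both sums overlapped between all groups, but single endothelial markers differed in opposite directions. Vwf, the clotting protein of these cells, averaged 334 ± 73.2 in young, 582 ± 178 in old and 279 ± 34.9 in old CR muscle (SD, n = 5), and was the 1 endothelial marker called, lower in old CR than in old at -1.02 (SE 0.21, adjusted p = 0.018). This call was kept without any 1 of the 15 arrays. It was lost with the 3′ to 5′ measure in the fit, where 0% of all probe sets were called. With the replicate number in the fit it was lost too, where 0.0177% were called. The junction protein Cldn5 differed by -0.80 (SE 0.22, adjusted p = 0.0526) and the adhesion molecule Pecam1 by 0.79 (SE 0.22, adjusted p = 0.0529), neither called. With age these 3 differed by 0.77, 0.52 and -0.61, none of them called. All 10 fiber markers were lower in old than in young (median -0.21) and higher in old CR than in old (median 0.31), and none was called. Acta1, Ckm, Mylpf, Tnnt3, Tnni2, Myh4 and Casq1 of this list recur among the structural targets below, so these lists are not independent. The part of these cell types in the values of the 9 genes was not tested.

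Around these genes, 109 partners, regulators and targets were listed by role, and 103 were measured. By the brightest probe set of each gene, 2 were called with age, 1 higher and 1 lower, where 0.186% of 12393 genes were called. With CR, comparing old CR and old mice, 9 were called, 2 higher and 7 lower, where 4.83% of genes were called. Between old CR and young mice none was called (0.0807% of genes). At an unadjusted p under 0.05 in limma, 17 were higher and 10 lower with age, where 15.5% of all probe sets passed. In old CR against old, 18 were higher and 15 lower (21.9% of all probe sets), and in old CR against young 8 and 11 (12.1%). These shares are over all probe sets, dim ones included, while the counts use the brightest probe set of each gene. The counts therefore cannot be read as an excess over them. The median difference over the 103 genes was -0.05 with age and 0.0019 with CR, against -0.06 and 0.06 over all probe sets.

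Of the 8 partners and relatives of the members, none was called in any comparison. Tcf4, an E protein with which the myogenic factors and Id proteins pair, differed by 0.47 (SE 0.18, adjusted p = 0.235) with age and -0.54 (SE 0.18, adjusted p = 0.101) with CR. Myocd, a coactivator of smooth and cardiac muscle genes, differed by -0.63 (SE 0.22, adjusted p = 0.195) with age and 0.60 (SE 0.22, adjusted p = 0.137) with CR. The median of this group was 0.19 with age and -0.15 with CR.

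Of the 17 measured repressors and inhibitors, none was called with age and 2 fell with CR. Zeb1, a zinc-finger repressor that binds E-box-like motifs, averaged 983 ± 112 in young, 1188 ± 138 in old and 806 ± 92.1 in old CR muscle (SD, n = 5), a change in old CR from old of -0.56 (SE 0.13, adjusted p = 0.026). Hey1, a Notch-induced helix-loop-helix repressor, changed by -0.95 (SE 0.23, adjusted p = 0.0343) from a low level of 101 ± 25.9 in old muscle. The call of Zeb1 ended without old replicates 3 or 5 or old CR replicates 3 or 5. That of Hey1 ended without old replicates 1, 2, 3 or 5 or old CR replicates 2, 3, 5 or 6.

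Of the 15 measured satellite cell and upstream factors, Lbx1 was called in old CR against old. This homeobox factor of migrating limb muscle precursors averaged 1361 ± 157 in young, 2145 ± 468 in old and 973 ± 193 in old CR muscle (SD, n = 5), a change of -1.13 (SE 0.18, adjusted p = 0.0066). Its call was kept when any of the 15 arrays was left out. However, a second bright probe set of Lbx1 differed by 0.14 (adjusted p = 0.829).

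Of 28 BMP ligands, receptors, SMADs and antagonists, which act upstream of the Id genes, 3 fell with CR and none was called with age. They were the receptor Acvr2a at -0.68 (SE 0.15, adjusted p = 0.0272), the BMP effector Smad1 at -0.65 (SE 0.16, adjusted p = 0.0353) and the common effector Smad4 at -0.66 (SE 0.17, adjusted p = 0.0435). Smad4 was lower on its other 2 probe sets too, at -0.77 (adjusted p = 0.0452) and -0.49 (adjusted p = 0.0575), while the second probe sets of Acvr2a and Smad1 were dim and not called. With age, Acvr2a was 0.64 (adjusted p = 0.0843) and the endothelial receptor Acvrl1 -0.61 (adjusted p = 0.0943). The call of Acvr2a ended without old replicates 2, 4 or 5 or old CR replicates 2, 6 or 7. That of Smad1 was kept only without a young array or old CR replicate 2, and that of Smad4 only without young replicates 2 or 3 or old CR replicate 5.

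Of 15 measured synaptic and embryonic-type targets, Actc1 was called in both comparisons with old. Actc1, the cardiac alpha-actin of embryonic muscle, averaged 12304 ± 4908 in young, 2818 ± 1186 in old and 8294 ± 2847 in old CR muscle (SD, n = 5). It fell with age (-2.16 (SE 0.38, adjusted p = 0.0417)) and was higher in old CR than in old (1.62 (SE 0.38, adjusted p = 0.0296)). Over the 15 genes of this role, 7 were higher and 8 lower with age, with a median of -0.03. The acetylcholine receptor subunits Chrnb1 and Chrna1, known targets of Myog and Myod1, were not called, at 0.79 (SE 0.15, adjusted p = 0.0539) and 0.55 (SE 0.16, adjusted p = 0.123) with age. In old CR against young, Chrna1 differed by 0.78 (SE 0.16, adjusted p = 0.0709). The age call of Actc1 was kept only without young replicate 3 or old CR replicates 2 or 3, and its CR call ended without old replicates 1 or 3 or old CR replicates 5, 6 or 7.

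Of 20 structural and metabolic targets, 19 were lower in old than in young (median -0.21) and 19 were higher in old CR than in old (median 0.30). Among all 22626 probe sets, 12896 were lower with age and 12504 were higher in old CR than in old. None of the targets lower with age was called, and Myh1 was the only called one of those higher with CR. The exception to both directions was Cdkn1a, the cell-cycle inhibitor p21, which Myod1 can induce and which is no structural gene. It averaged 396 ± 57.1 in young, 1122 ± 375 in old and 621 ± 73.2 in old CR muscle (SD, n = 5), rose with age at 1.46 (SE 0.19, adjusted p = 0.015) and fell with CR at -0.81 (SE 0.19, adjusted p = 0.0304). Its age call ended without young replicate 1 (adjusted p = 0.0549), and its CR call without old replicate 4 or old CR replicates 5, 6 or 7. The other probe set of Cdkn1a was dim and not called, at 0.70 (adjusted p = 0.633) with age and 0.19 (adjusted p = 0.897) with CR. Myh1, the fast IIx myosin heavy chain, was higher in old CR than in old at 0.52 (SE 0.12, adjusted p = 0.0297), and this call ended without old replicates 2, 3 or 5 or old CR replicates 3, 5, 6 or 7. Its probe set bears the suffix _x_at, so related myosins may share the signal. With the 3′ to 5′ measure in the fit no pathway gene was called with age or with CR, where 0% of all genes were called in either comparison.

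**Figure D5:**
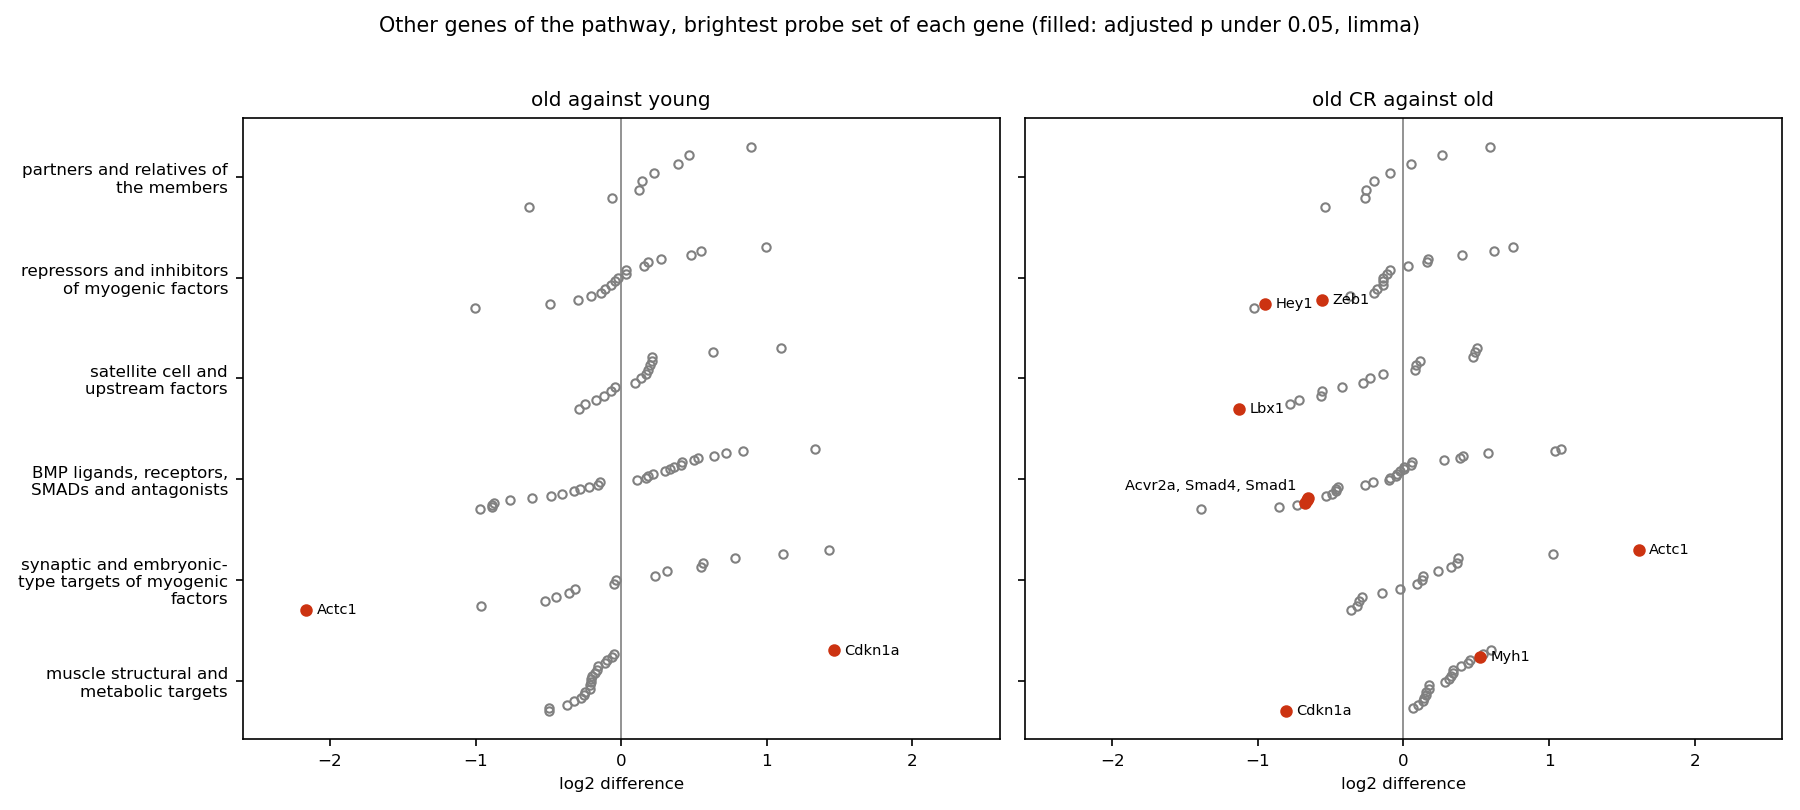
Log2 differences of 103 pathway genes (1 circle per gene, brightest probe set) by role in old against young and in old CR against old, with filled circles for an adjusted p under 0.05 (limma) and positive values for higher in the group named first. The structural targets lie left of 0 with age and right of 0 with CR except Cdkn1a, and 2 and 9 circles are filled.

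The genes most like 3 of the members over the 15 arrays were sought among 10384 bright probe sets with 1 symbol, by Pearson's correlation of log2 intensities, as a description that includes the differences between groups. For Myod1 these were Zfp622 (r = 0.868), Nmt1 (0.845) and Tmem160 (0.825). For Myog they were Rnf187 (0.841), Ankrd1 (0.775) and Scand1 (0.763), of which the muscle ankyrin repeat gene Ankrd1 averaged 279.9 in young, 503 in old and 434 in old CR. For Id1 they were Retreg1 (0.850), Rhob (0.839) and Errfi1 (0.808). None of them was a pathway gene listed above other than Ankrd1.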

How the data were processed

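Labelled cRNA from the gastrocnemius of 15 mice (5 young, 5 old, 5 old CR) was hybridised to MOE430A arrays, 1 per mouse. The authors deposited 1 linear intensity per probe set and array, and each array has a trimmed mean of 500. MAS5 and RMA are named, without a version, in the processing notes of the submitters, and the genome build of the probes was not given in the sources used here. The intensities were taken as deposited, without further normalization, and converted to log2 without a pseudocount. Precision is limited by the number of arrays.

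The 22626 probe sets that are not controls (64 controls of 22690 were left out) entered limma 3.58.1 (R 4.3.3), with the 3 groups in 1 fit and no variance trend. The prior degrees of freedom were 2.17. Intervals cover 95%. The procedure was tested on simulated data. Gene names came from the platform annotation, in which 20380 of these probe sets had 1 symbol, 691 several and 1555 none, and genes were named only from probe sets with 1 symbol. Figures and exact permutation tests used Python 3.11.15, SciPy 1.17.1 and Matplotlib 3.10.9.

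The members, lists and tests were chosen with earlier results of these data known. All 9 members were named with every probe set. Pathway genes were named where called (up to 4 per role), and otherwise up to 2 per role with the smallest unadjusted p. Pax7, Calcr, Cdh15, the 3 endothelial markers, and Chrnb1 and Chrna1 with age, were named after their values were seen. Likeness was sought for Myod1, Myog and Id1. Alternatives were another filter, scaling, pseudocount, threshold, variance model, covariate, replicate block, averaging over probe sets, and each array left out.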

Additional observations from a re-analysis of the deposited data

Results flagged for a closer look

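Within the 57 groups of 5 arrays formed by the 19 probe sets, 4 held an array far from the other 4 (by Dixon's test on its gap to the next array), and chance alone gives about 1 in 20 groups. Old replicate 2 was highest for Mef2a 1427185_at, at 2994 against a next value of 2686. Old CR replicate 7 was lowest for Mef2a 1427186_a_at, at 490.0 against 759.9. Old replicate 1 was highest for Mef2c 1421027_a_at, at 5099 against 3908. Young replicate 2 was lowest for Mef2c 1451507_at, at 831 against 1706. These are 4 different arrays.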

How the results depend on the processing

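The 9 genes had no called probe set in old CR against young under any setting, where 0% to 1.8% of all probe sets tested were called. In old against young, 1 of the 19 was called among the 11313 brightest probe sets (5.06% of all tested called), with a variance trend (1.85%) and with array weights (3.4%). In old CR against old, 3 were called among the brightest (15.7%), 2 with the trend (7.36%), 2 at an adjusted p under 0.10 (10.1%) and 1 with arrays centered on their medians (4.89%). Leaving out 1 array gave 0 to 2 (2 without young replicate 3, 4.72% of all) and 0 to 1 (1 without young replicate 3, 7.32%, or old CR replicate 7, 2.32%). For the 103 pathway genes, the share in parentheses is that of all genes called under the same setting. Those called in old against young numbered 2 as reported (0.186%), 10 among the brightest (4.23%), 7 with the trend (1.61%), 9 with array weights (2.78%), 6 at 0.10 (1.42%), 0 with only the compared groups (0.0323%), 0 with the 3′ to 5′ covariate (0%), and 0 to 7 with 1 array left out (7 without young replicate 3, 3.82%, and 0 without young replicate 1, 0%). For old CR against old they numbered 9 as reported (4.83%), 16 among the brightest (15.1%), 15 with the trend (7.79%), 16 at 0.10 (10.2%), 4 when the probe sets of each gene were averaged (4.56%), 0 with the covariate (0%), and 2 to 13 with 1 array left out (2 without old CR replicate 6, 2.45%, and 13 without young replicate 3, 7.05%). For old CR against young they numbered 3 (1.75%), 3 (0.734%) and 1 (0.42%) among the brightest, with the trend and at 0.10.

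The replicate block gave 0 pathway calls in old against young (0% of genes) and in old CR against old (0.0161%). The sample titles do not say that the replicate numbers pair the mice. Deviations of same-numbered arrays correlated at -0.28 to 0.094, and those of differently numbered arrays at -0.24 to 0.17. These values show no strong pairing and cannot exclude a weak one. Under the block, the sign turned in old CR against old for Id2 1453596_at (-0.38), and in old CR against young for Myf5 (-0.15), Mef2a 1427185_at (-0.010), Mef2a 1425426_a_at (0.39) and Id2 1453596_at (-0.30).

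The sign of differences that were not called turned in some settings, and the cause was not tested. With the 3′ minus 5′ covariate these were, in old against young, Mef2a 1427186_a_at (-0.038) and 1425426_a_at (0.38) and Mef2c 1424852_at (-0.079), 1421027_a_at (-0.075) and 1451506_at (-0.11). For old CR against old they were Mef2a 1427186_a_at (0.14) and 1425426_a_at (-0.94), Mef2c 1424852_at (0.14), 1421027_a_at (0.50) and 1451506_at (0.28), Id1 (-0.84) and Id2 1422537_a_at (1.43), and in old CR against young Mef2c 1424852_at (0.062). Quantile normalization turned Myf6 with age (-0.022) and, in old CR against old, Mef2a 1425426_a_at (-0.17) and Id2 1435176_a_at (-0.090). Median centering turned the latter pair too (-0.085 and -0.049). A pseudocount of 32 turned Id2 1453596_at with age (-0.025) and 1435176_a_at in old CR against old (-0.081), and array weights turned 1435176_a_at (-0.012) and, in old CR against young, Mef2c 1424852_at (0.0069).

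With 1 array left out, signs turned in old against young for Myf6 (-0.099 to 0.094), Mef2a 1421252_a_at (-0.044 to 0.24) and 1425426_a_at (-0.77 to 0.078), and Id2 1453596_at (-0.44 to 0.35). Between old CR and old they turned for Myog (-0.056 to 0.26), Myf5 (-1.07 to 0.019), Mef2a 1425426_a_at (-0.56 to 0.47), Id1 (-0.043 to 0.22) and Id2 1435176_a_at (-0.54 to 0.41). Between old CR and young they turned for Myod1 (-0.24 to 0.080), Myf5 (-0.17 to 0.92), Mef2a 1452347_at (-0.18 to 0.033), 1421252_a_at (-0.29 to 0.0055), 1427186_a_at (-0.050 to 0.17) and 1425426_a_at (-0.87 to 0.082), Mef2c 1424852_at (-0.13 to 0.045) and 1451506_at (-0.056 to 0.18), Id2 1453596_at (-0.18 to 0.70) and Id3 (-0.053 to 0.15). The dim probe sets of Myf5, Id2 and Mef2a limit what can be read from them. Myod1, Mef2a 1427185_at and 1452347_at, Mef2c 1421028_a_at and 1451507_at, and Id3 kept their direction with age and with CR under every setting.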
